A study of Mus musculus with 6 samples.

Results

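The 10 genes described here encode enzymes that protect cells from reactive oxygen species, and they were followed in the heart ventricle of mice on a western diet (WD). The genes are *Nqo1*, *Hmox1*, *Gclc*, *Gclm*, *Cat*, *Sod1*, *Sod2*, *Gpx1*, *Gpx4* and *Prdx3*, taken as a list by name and not by a threshold on measured values, though with earlier results of these data known. All 10 had enough reads to be tested, among 14133 genes tested of 54232 identifiers in the count table. The 6 mice were wild-type (WT) C57BL/6J and all had been fed WD for 15 weeks. They were then needle-fed for 3 weeks, on alternating pairs of days, with either Tributyrin at 5 g/kg body weight (WD + Tributyrin, 3 mice) or a control that the labels call PBS and the study's methods call vehicle (WD + PBS, 3 mice). Tributyrin is a triglyceride that releases the short-chain fatty acid butyrate. The study sequenced these hearts to ask which transcripts differ with Tributyrin in a diet model of early heart failure with preserved ejection fraction. Both groups were on WD, so the values describe Tributyrin on that diet and not the diet itself.

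Oxidative defence in the heart is layered. Superoxide that leaks from the respiratory chain is converted to hydrogen peroxide by superoxide dismutases, and the peroxide is removed by catalase, glutathione peroxidases and peroxiredoxins. The glutathione peroxidases use glutathione, and glutamate-cysteine ligase is the enzyme of the first step of its synthesis. The transcription factor NRF2, encoded by *Nfe2l2*, is held back by KEAP1 under resting conditions. When KEAP1 is modified by electrophiles, NRF2 enters the nucleus, pairs with a small MAF protein and binds antioxidant response elements (AREs). *Nqo1*, *Hmox1*, *Gclc* and *Gclm* are its classical targets, whereas *Cat*, *Sod1*, *Sod2*, *Gpx1*, *Gpx4* and *Prdx3* encode enzymes that act on superoxide or peroxide.

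The libraries held between 20369746 and 32734485 counts on genes, and mitochondrial transcripts took 23.6% to 26.5% of them with PBS and 25.9% to 28.8% with Tributyrin. Summed over 8 genes, ventricular cardiomyocyte markers ranged from 1423541 to 1461830 normalized counts with PBS and from 1377957 to 1491768 with Tributyrin, so the markers of the labelled tissue were abundant in every library. A normalized count is the number of reads on a gene after division by the library's size factor. Summed atrial markers reached 4786.5 and 4539.3 normalized counts in the libraries PBS 1 and PBS 2, against 815.4 to 1686.7 in the other 4 libraries. The highest level of erythroid markers was 24765 in Tributyrin 1, against 10044 to 18295 elsewhere. Endothelial, fibroblast, macrophage and smooth muscle sums overlapped between the groups. The cardiomyocyte sum was mostly *Myh6* and *Actc1*, which had lower means with Tributyrin, while the other 6 of its 8 markers had higher means and 4 of the 8 had an unadjusted p under 0.05 in edgeR. Single markers with groups apart and Tributyrin higher were *Tnni3* (log2 fold change 0.21), *Pln* (0.24) and the smooth muscle gene *Myh11* (0.59). So were the macrophage gene *Lyz2* (0.17) and the adipocyte marker *Fabp4* (0.28). The fibroblast gene *Lum* (-0.31) was apart and lower. Of all genes tested, 8.91% had groups apart in either direction. *Lyz2* was the only macrophage marker above 0, and the other 7 of 8 were below 0 with overlapping groups. The sum of 5 adipocyte markers was 7852 to 8249 with PBS and 8659 to 11441 with Tributyrin, but it was nearly all *Fabp4*, which endothelial cells also express, while the other 4 markers lay between 0 and 35.6. The labels do not give the sex of the mice, and the Y-linked *Ddx3y* had 1571 to 2559 counts in every library. The labels number the samples within each group and do not state separate litters or cages, so p-values measure the spread between these samples.

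The promoters of 4 of the genes are shown, namely the 3 whose groups did not overlap (*Gclm*, *Sod1* and *Cat*) and *Nqo1*, the gene most used as a readout of NRF2. Each is the 250 bases before the start site from RefSeq on GRCm38.p6, written 5′ to 3′ on the strand of the gene. The windows are chr3:122245307-122245556 (plus strand), chr16:90220512-90220761 (plus), chr2:103485154-103485403 (minus) and chr8:107403206-107403455 (minus). Capitals mark the ARE core TGACNNNGC, the CCAAT box CCAAT and the TATA box TATAAA, each read on both strands.
Gclm: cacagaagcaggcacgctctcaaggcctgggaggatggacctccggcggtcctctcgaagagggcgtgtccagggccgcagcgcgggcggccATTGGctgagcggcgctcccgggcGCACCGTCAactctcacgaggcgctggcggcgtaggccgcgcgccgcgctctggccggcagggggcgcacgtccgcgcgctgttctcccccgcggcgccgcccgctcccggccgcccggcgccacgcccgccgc
Sod1: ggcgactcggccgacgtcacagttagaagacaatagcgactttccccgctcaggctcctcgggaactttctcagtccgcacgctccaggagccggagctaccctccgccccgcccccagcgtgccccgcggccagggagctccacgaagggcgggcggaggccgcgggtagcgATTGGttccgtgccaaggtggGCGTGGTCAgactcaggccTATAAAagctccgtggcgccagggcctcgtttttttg
Cat: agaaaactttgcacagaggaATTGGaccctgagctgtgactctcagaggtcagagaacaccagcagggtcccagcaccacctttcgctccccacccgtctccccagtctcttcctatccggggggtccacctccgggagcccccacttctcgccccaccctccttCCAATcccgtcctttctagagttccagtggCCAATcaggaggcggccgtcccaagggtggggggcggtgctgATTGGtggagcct
Nqo1: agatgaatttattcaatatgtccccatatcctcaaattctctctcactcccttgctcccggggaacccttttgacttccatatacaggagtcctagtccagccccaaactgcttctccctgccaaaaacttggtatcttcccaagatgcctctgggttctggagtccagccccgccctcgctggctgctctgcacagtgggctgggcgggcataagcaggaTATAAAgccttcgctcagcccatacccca

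Promoters of 8 of the 10 genes were matched, in 11 windows of 300 bases that reach from 250 before to 50 after the start site, and *Hmox1* and *Gclc* were not among them. The ARE core lay in 2 of the 11 windows, against 12.4% of 32851 mouse promoters of the same length. It was GCACCGTCA on the plus strand of *Gclm*, starting at position -134, and GCGTGGTCA in *Sod1*, starting at -56, both of them the motif read on the opposite strand. Of the 11 windows, 4 belong to *Gpx4*, and 2 of those share 206 bases, so windows are not independent. The CCAAT box was in 7 of 11 windows and 5 of 8 genes (37.4% of all promoters) and the TATA box in 3 of 11 windows and 3 of 8 genes (13.6%), and no capitalised motif overlapped another in the windows shown. *Cat* held 4 CCAAT boxes, at -230, -85, -55 and -13. *Nqo1* had a TATA box at -29 and *Sod1* had one at -37. The GC box GGGCGG, not in capitals, was in 10 of 11 windows and 8 of 8 genes (35.7% of all promoters). These are matches of letters and not measured binding sites. Bases outside the windows were not searched, so a gene without a match here may have one further away.

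Transcript levels of the 10 genes spanned 107-fold in the hearts given PBS. In reads per kilobase of the main transcript, scaled to a common library size (RPKM), *Gpx4* stood highest with 351.2 ± 15.3 (SD, n = 3) with PBS. *Sod1* followed with 274.8 ± 9.32, *Prdx3* with 175.9 ± 7.96, *Cat* with 120.7 ± 3.91 and *Sod2* with 105 ± 1.83. *Nqo1* was at 41.9 ± 3.24 and *Gpx1* at 35.2 ± 3.62. At the lower end lay *Hmox1* at 3.68 ± 0.687, *Gclc* at 3.56 ± 0.508 and *Gclm* at 3.28 ± 0.185 RPKM. The peroxide and superoxide enzymes thus lay above the glutamate-cysteine ligase subunits and *Hmox1*. Neighbours in this order were apart in every library of both groups except *Nqo1* and *Gpx1*, *Hmox1* and *Gclc*, and *Gclc* and *Gclm*, whose ranges overlapped. The place of *Sod1* depends on the transcript length that is used. Divided by all annotated exons, it lay at 46.9 RPKM over all 6 libraries, below *Sod2* at 62.7, because extra exons are annotated for it. It was then next to *Nqo1* at 40.5, with ranges that overlapped with PBS and were apart with Tributyrin. *Gpx4* was still highest by that length, at 198.7, but its range overlapped that of *Prdx3* (180.4) with Tributyrin.

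**Figure D1:**
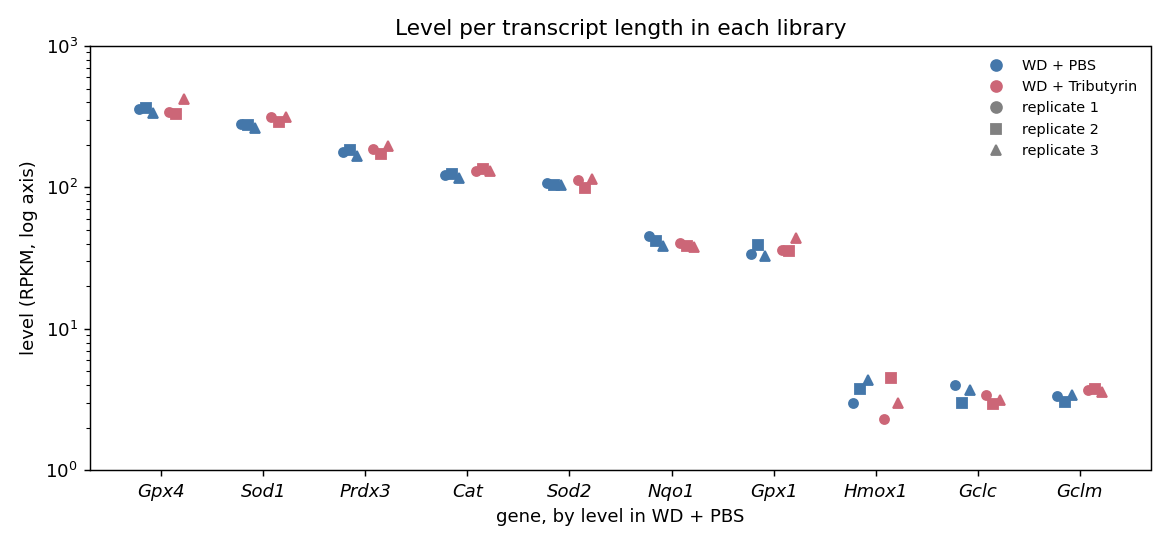
Level of each gene in RPKM on a log10 axis, 1 point per library, PBS and Tributyrin in separate colours, with genes ordered by their mean with PBS. By the length of the main transcript, a high set runs from *Sod2* at 105 to *Gpx4* at 351.2 RPKM with PBS. Below it are a middle pair (*Nqo1* and *Gpx1*) and a low set of 3 genes, *Hmox1*, *Gclc* and *Gclm*. By the length of all exons *Sod1* lies next to *Nqo1*.

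With Tributyrin, *Gclm*, *Cat* and *Sod1* were higher in all 3 mice than in any mouse given PBS, by 12.2%, 9.51% and 11.5% in the mean. *Nqo1*, *Hmox1* and *Gclc* had lower means with Tributyrin, and the other 4 genes had slightly higher ones, all with overlapping groups. None of the 10 passed the test. By edgeR's quasi-likelihood fit, with p-values adjusted over all 14133 genes by the Benjamini-Hochberg method, 0 of 10 genes passed an FDR of 10% or 5%, as did 0 (0%) of all genes. Without adjustment, 1 of 10 (*Sod1*) had p under 0.05, against 600 of 14133 genes (4.25%). DESeq2 called 0 of the 10 (11 of all genes) and limma-voom 0 (0 of all genes).

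Of the 10 genes, 7 had a log2 fold change above 0, against 49.6% of all genes tested. Their groups were apart with Tributyrin higher for 3 of 10, against 4.26% of all genes, and apart with Tributyrin lower for 0 of 10, against 4.65% (8.91% in either direction). The median log2 fold change of the list was 0.06 and that of all genes was -0.0013. The 10 genes were not alike in spread, since the pooled coefficient of variation ran from 2.67% for *Cat* to 27.5% for *Hmox1*, with a median of 6.13% against 10.5% over all genes. Scaling by library size alone lowered the median log2 fold change of all genes to -0.07. It left 4 of 10 genes above 0, against 27.5% of all genes, so the direction of small differences depended on the scaling. Under it the groups of *Sod1* were still apart, those of *Gclm* and *Cat* overlapped, and those of *Nqo1* were apart with Tributyrin lower, with 11.5% of all genes apart in either direction. As the samples are pieces of tissue, fewer cells of a type and less RNA per cell cannot be told apart.

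**Figure D2:**
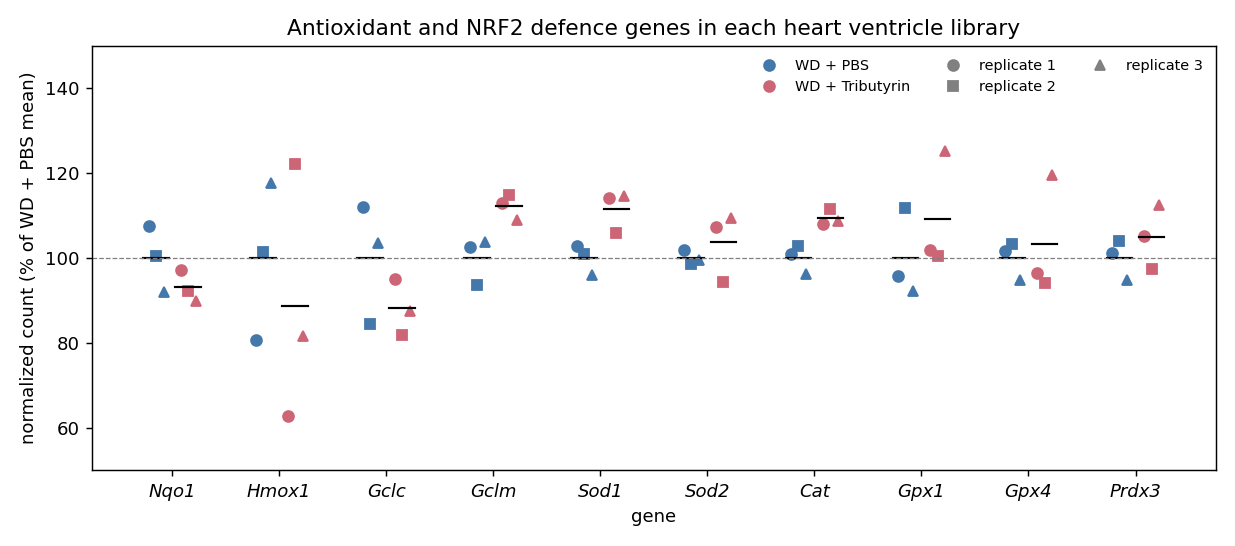
Normalized counts of each of the 10 genes as a percentage of the gene's mean with PBS, 1 symbol per library (n = 3 per group), with short black lines at the group means. The vertical axis does not start at 0. The groups do not overlap for *Gclm*, *Cat* and *Sod1*, and they do for the other 7 genes.

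Among the classical NRF2 targets, *Nqo1* (ENSMUSG00000003849, chr8:107388225-107403206, minus strand, GRCm38) encodes a quinone reductase. It had 1839.8, 1718 and 1573 normalized counts with PBS and 1660.7, 1579 and 1538 with Tributyrin. PBS 1 and PBS 2 were the highest, Tributyrin 3 was the lowest, and the groups overlapped. The means were 1710 ± 133.6 and 1593 ± 62.4 (SD, n = 3), a log2 fold change of -0.10 (SE 0.078, 95% interval -0.28 to 0.07) with an adjusted p of 0.999 in edgeR. Leaving out PBS 1 and PBS 2, the libraries rich in atrial transcripts, turned the direction, to 0.02. That left 1 PBS library, PBS 3, which was the lowest of its group for *Nqo1*, and the part of atrial content was not tested.

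*Hmox1* (ENSMUSG00000005413, chr8:75093621-75100589, plus strand) encodes haem oxygenase 1, which degrades haem and is abundant in macrophages that clear red cells. Its normalized counts were 123, 154 and 179 with PBS and 95.4, 186 and 124 with Tributyrin. Both the lowest and the highest library were in the Tributyrin group, and the log2 fold change was -0.16 (SE 0.235, 95% interval -0.68 to 0.36, edgeR adjusted p 0.999). Without Tributyrin 1 it was 0.04 and without Tributyrin 2 it was -0.47. The summed macrophage markers were also lowest in Tributyrin 1 (5927 normalized counts) and highest in Tributyrin 2 (7390). So were the endothelial (14197.5 and 15767.8), fibroblast (17596.5 and 21163.3) and smooth muscle sums (2876.3 and 5934.5). Among the PBS libraries the macrophage sum was highest in PBS 2 (7131.5), whereas *Hmox1* was highest in PBS 3. The part of these cell types in the result was not tested. With 102 to 203 raw counts per library, *Hmox1* is the least deeply measured of the 10, with a counting error of up to 9.90% in a library.

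The subunits of glutamate-cysteine ligase, the enzyme of the first step of glutathione synthesis, had fold changes of opposite sign. *Gclc* (ENSMUSG00000032350, chr9:77754535-77794485, plus strand), the catalytic subunit, had 359.6, 271 and 332 normalized counts with PBS and 305, 262 and 281 with Tributyrin. PBS 2 lay within the Tributyrin range, and the groups overlapped. The log2 fold change was -0.18 (SE 0.127, 95% interval -0.46 to 0.11, edgeR adjusted p 0.999), and it ranged from -0.29 without PBS 2 to -0.08 without PBS 1.

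*Gclm* (ENSMUSG00000028124, chr3:122245557-122270732, plus strand), the modifier subunit, had 494, 450.5 and 499 normalized counts with PBS and 543, 553 and 524 with Tributyrin. Every Tributyrin library was above every PBS library, with means of 540.1 ± 14.5 against 481.2 ± 26.8 (SD, n = 3). The log2 fold change was 0.17 (SE 0.087, 95% interval -0.02 to 0.36), and it did not pass the test (edgeR unadjusted p 0.0798, adjusted p 0.999). With library size alone it was 0.10, and without PBS 2, the lowest library, 0.12. Of the 50-base stretches in the exons of *Gclm*, 4.58% also occur in transcripts of other genes. Among these is *Ppia*, with 206 of the stretches and 1552 to 2405 counts in a library, so the level of *Gclm* is uncertain to that extent. The genes that overlap *Gclm*, *Gm17494* and *Gm6061*, had at most 12 counts in a library.

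The ratio of *Gclc* to *Gclm* reads within a library needs no scaling between libraries. It was 0.728, 0.601 and 0.664 with PBS and 0.561, 0.474 and 0.536 with Tributyrin. All 3 Tributyrin libraries lay below all 3 PBS libraries, with means of 0.524 ± 0.0446 against 0.664 ± 0.0639 (SD, n = 3). The log2 difference was -0.34, and it ranged from -0.41 to -0.27 when each library was left out in turn. The ratio of *Nqo1* to *Gclm* was likewise lower in every Tributyrin library, at 3.06, 2.86 and 2.93 against 3.73, 3.81 and 3.15. These ratios were chosen after the values of the genes had been seen, so they are given without a test. The 95% intervals of *Gclc*, *Gclm* and *Nqo1* each include 0.

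**Figure D3:**
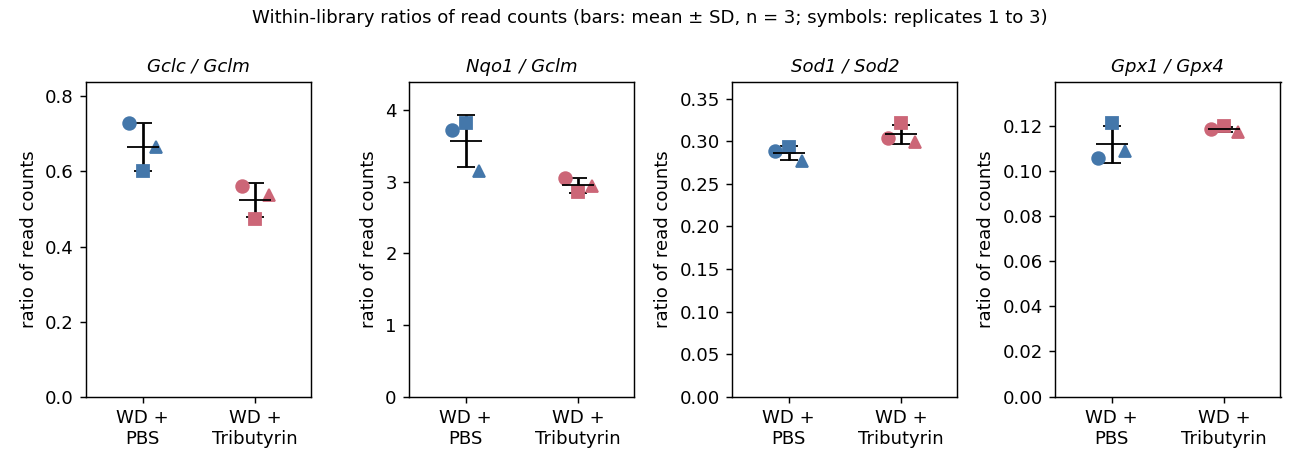
Ratio of read counts within each library for 4 pairs of genes, with 1 symbol per replicate and bars for the mean ± SD (n = 3), on linear axes that start at 0. *Gclc* to *Gclm* and *Nqo1* to *Gclm* are lower in all 3 Tributyrin libraries, *Sod1* to *Sod2* is higher in all 3, and *Gpx1* to *Gpx4* overlaps.

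Both superoxide dismutases were measured deeply. *Sod1* (ENSMUSG00000022982, chr16:90220754-90226329, plus strand), the cytosolic copper and zinc enzyme, had 4767, 4676 and 4453 normalized counts with PBS and 5286, 4902 and 5310.0 with Tributyrin. The groups were apart, and the lowest Tributyrin library was Tributyrin 2. Means were 4632 ± 162 and 5166 ± 229 (SD, n = 3), a log2 fold change of 0.16 (SE 0.068, 95% interval 0.01 to 0.31). The unadjusted p was 0.0419 in edgeR, rank 512 of all genes, and the adjusted p was 0.999. Library size alone gave 0.09, and the smallest adjusted p for *Sod1* in any alternative was 0.415, without Tributyrin 2. *Sod1* shares 3.42% of its 50-base stretches with the pseudogene *Gm8566*.

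*Sod2* (ENSMUSG00000006818, chr17:13006846-13040063, plus strand), the manganese enzyme of the mitochondrial matrix, had 16498, 15961 and 16099 normalized counts with PBS. With Tributyrin it had 17359, 15258 and 17728. Tributyrin 2 was the lowest of all 6 libraries and the other Tributyrin libraries were the highest. The log2 fold change was 0.05 (SE 0.074, 95% interval -0.11 to 0.22, edgeR adjusted p 0.999). It was 0.12 without Tributyrin 2 and 0.02 without Tributyrin 3. Of the 50-base stretches of *Sod2*, 21.0% also occur in transcripts of other genes, among them *Rps6ka2* with 1133 to 2322 counts in a library, so its level and its place next to *Cat* are uncertain to that extent. The reads of *Sod1* per read of *Sod2* were 0.289, 0.293 and 0.277 with PBS and 0.305, 0.321 and 0.300 with Tributyrin. The groups were apart, with a log2 difference of 0.11. This ratio too was chosen with earlier results known and is given without a test.

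*Cat* (ENSMUSG00000027187, chr2:103453849-103485160, minus strand) encodes catalase, the peroxisomal enzyme that splits hydrogen peroxide. It had 8367, 8528 and 7985 normalized counts with PBS and 8966, 9259 and 9022 with Tributyrin. The groups were apart, and the pooled coefficient of variation of 2.67% was the lowest of the 10 genes. The means were 8293 ± 279 and 9082 ± 155 (SD, n = 3), a log2 fold change of 0.13 (SE 0.065, 95% interval -0.01 to 0.28, edgeR unadjusted p 0.0676, adjusted p 0.999). Library size alone gave 0.06. Red cells are rich in catalase. The erythroid sums of the groups overlapped, and their part in the result was not tested. Without both PBS 1 and PBS 2, with PBS 3 as the only PBS library, the log2 fold changes of *Gclm*, *Cat* and *Sod1* were 0.11, 0.18 and 0.21. The cardiomyocyte markers *Tnni3* and *Pln*, *Myh11*, *Lyz2* and the sum of adipocyte markers were apart in the same direction as these 3 genes. *Lum* was apart in the other direction, and 7 of the 8 macrophage markers, all but *Lyz2*, had log2 fold changes below 0. As for *Sod1*, Tributyrin 2 was the lowest of its group for *Tnni3* and *Pln*. For *Cat* and *Gclm*, Tributyrin 2 was instead the highest of its group, as it was for the cardiomyocyte marker *Myh6*. The part of these markers in the result was not tested.

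The groups overlapped for both glutathione peroxidases and for peroxiredoxin 3. *Gpx1* (ENSMUSG00000063856, chr9:108338903-108340343, plus strand), which reduces hydrogen peroxide in the cytosol and mitochondria, had 950, 1108 and 914 normalized counts with PBS and 1010, 996 and 1241 with Tributyrin. The Tributyrin 3 library was highest, PBS 2 was next, and the groups overlapped. The log2 fold change was 0.12 (SE 0.106, 95% interval -0.11 to 0.36, edgeR adjusted p 0.999), and it was 0.02 without Tributyrin 3 and 0.21 without PBS 2.

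*Gpx4* (ENSMUSG00000075706, chr10:80047166-80056439, plus strand) encodes the peroxidase that reduces lipid hydroperoxides in membranes and restrains ferroptosis. It had 9004, 9157 and 8407 normalized counts with PBS and 8538, 8326 and 10599 with Tributyrin. The Tributyrin 3 library stood above the other 5, and the log2 fold change of 0.05 (SE 0.095, 95% interval -0.16 to 0.26, edgeR adjusted p 0.999) turned to -0.07 without it. Of the 50-base stretches of *Gpx4*, 34.7% also occur in other transcripts, among them the pseudogene *Gpx4-ps2* with 111 to 179 counts in a library, so its level is uncertain to that extent.

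*Prdx3* (ENSMUSG00000024997, chr19:60864051-60874556, minus strand) encodes the peroxiredoxin of mitochondria. It had 6914, 7109 and 6488 normalized counts with PBS and 7200.2, 6657 and 7695 with Tributyrin. Tributyrin 2 lay within the PBS range and the other Tributyrin libraries lay above it. The log2 fold change was 0.07 (SE 0.075, 95% interval -0.10 to 0.24, edgeR adjusted p 0.999), and without Tributyrin 2 it was 0.12. Tributyrin 2 was the lowest of its group for *Sod1*, *Sod2*, *Gpx1*, *Gpx4*, *Prdx3* and *Gclc*, and Tributyrin 3 was the highest for *Sod1*, *Sod2*, *Gpx1*, *Gpx4* and *Prdx3*. Without Tributyrin 2 the groups were apart with Tributyrin higher for *Sod2* and *Prdx3* too, with 27.3% of all genes then apart in either direction.

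**Figure D4:**
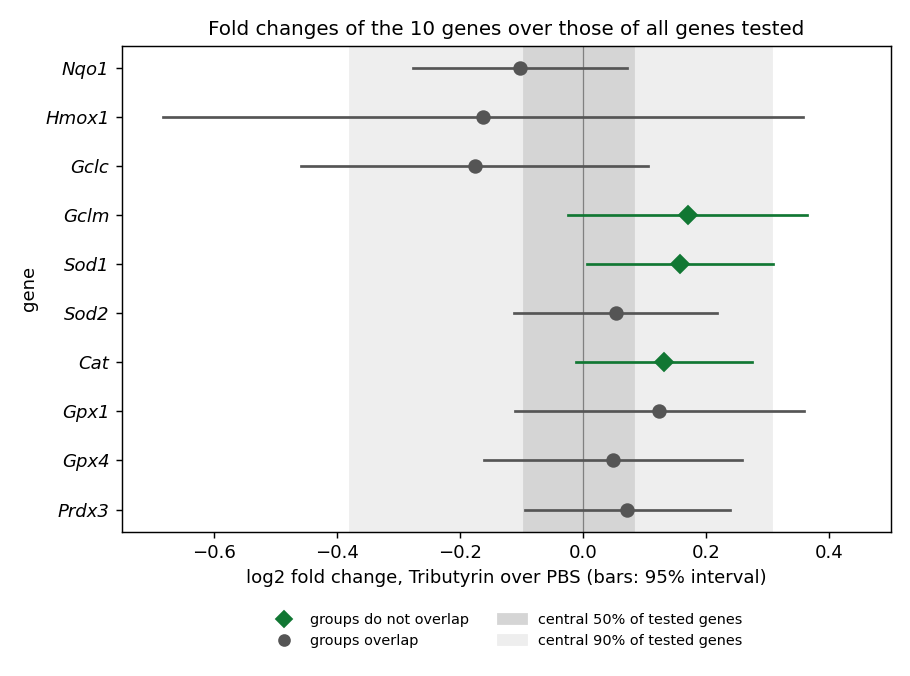
Log2 fold change of each gene, Tributyrin over PBS, with its 95% interval, over bands that hold the central 50% and 90% of all 14133 genes tested. The intervals of 9 of the 10 genes include 0, and that of *Sod1* runs from 0.01 to 0.31.

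The 10 genes are part of a larger network, for which 81 further genes were listed in 8 groups and 80 could be tested (*Slc7a11*, the cystine transporter, was too low). None passed an FDR of 10% in edgeR, 4 of 80 had an unadjusted p under 0.05 (4.25% of all genes), and 42 were above 0 and 38 below (49.6% of all genes above 0). These shares are near those of all genes. With library size alone 18 of 80 were above 0, against 27.5% of all genes. The groups were apart for *Prdx1*, *Fth1* and *Adh5* with Tributyrin higher and for *Maoa* with Tributyrin lower, 4 of 80 against 8.91% of all genes. Of the 22 genes named from these lists, 16 had a log2 fold change that moved by over 1.5 times when 1 library was left out. The list medians of log2 fold change lay between -0.08 and 0.06.

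Among 10 regulators of NRF2, 9 were above 0 (49.6% of all genes), with a median log2 fold change of 0.05. With library size alone 3 of them were above 0 (27.5% of all genes). *Nfe2l2* itself had 1473, 1465 and 1451 normalized counts with PBS and 1829, 1441 and 1744 with Tributyrin. Tributyrin 2 was the lowest of the 6 libraries and the other Tributyrin libraries were the highest, with a log2 fold change of 0.19 (SE 0.0908, edgeR unadjusted p 0.0595, adjusted p 0.999). Without Tributyrin 2 the log2 fold change was 0.29, with an adjusted p of 0.381 in edgeR. *Keap1*, its inhibitor, was at 0.08 and *Maff*, a small MAF partner, at 0.18, neither past the test.

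Of 18 other NRF2 targets tested, 7 were above 0 and 11 below. *Prdx1*, the cytosolic peroxiredoxin, had 6384, 6171 and 6042 normalized counts with PBS and 7170.3, 6452 and 7249 with Tributyrin. Like *Sod1*, it was higher in every Tributyrin library and lowest in Tributyrin 2 among them (log2 fold change 0.17, SE 0.0709, edgeR unadjusted p 0.0394, adjusted p 0.999). *Fth1*, the ferritin heavy chain that stores iron, had 34789, 33934 and 33267 with PBS and 36691, 35915 and 40147 with Tributyrin, also apart (0.15, SE 0.0699). *Abcc1*, which exports glutathione conjugates, was at -0.19.

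In the glutathione list, 8 of 12 genes were above 0. *Ggct*, which cleaves gamma-glutamyl peptides, had a log2 fold change of 0.24 and *Idh2*, a mitochondrial source of NADPH, of 0.12. *Ggt5* was at 0.20, but at 0.01 without PBS 2 or without Tributyrin 2. The other superoxide dismutases and glutathione peroxidases were 2 of 5 above 0, with *Gpx3* at -0.13, *Gpx7* at -0.17 and *Gpx8* at 0.04. In the peroxiredoxin and thioredoxin list 8 of 13 were above 0, with *Prdx6* at 0.12 and *Msrb2*, a mitochondrial methionine sulfoxide reductase, at 0.10. None of these genes had groups apart, other than *Prdx1*. Haem and iron genes were 5 of 11 above 0, and the exporter *Slc40a1* was at 0.23 and *Tfrc*, the transferrin receptor, at -0.27. Without Tributyrin 2 these were 0.10 and -0.05, and without Tributyrin 3 they were 0.38 and -0.49.

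Sources of superoxide and peroxide were 3 of 11 above 0 (49.6% of all genes), with a median log2 fold change of -0.08. With library size alone 1 of 11 was above 0 (27.5% of all genes). The monoamine oxidases, which release hydrogen peroxide, differed in sign. *Maoa* had 103, 112 and 106 normalized counts with PBS and 96.3, 77.7 and 70.0 with Tributyrin, apart, with a log2 fold change of -0.39 (SE 0.172, edgeR unadjusted p 0.0449, adjusted p 0.999). *Maob* was higher in its mean by 0.25 (unadjusted p 0.0332, adjusted p 0.999 in edgeR), with overlapping groups. *Nox4*, an NADPH oxidase, was at -0.28 (SE 0.262). Among enzymes that clear lipid aldehydes, 5 of 9 were above 0. *Gsta4*, which conjugates 4-hydroxynonenal to glutathione, had means of 1360 ± 92.5 and 1612 ± 182 normalized counts (SD, n = 3) and a log2 fold change of 0.25 (edgeR unadjusted p 0.0248, adjusted p 0.999), with overlapping groups. *Cbr1* was at 0.19 and *Aldh1b1* at -0.23.

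**Figure D5:**
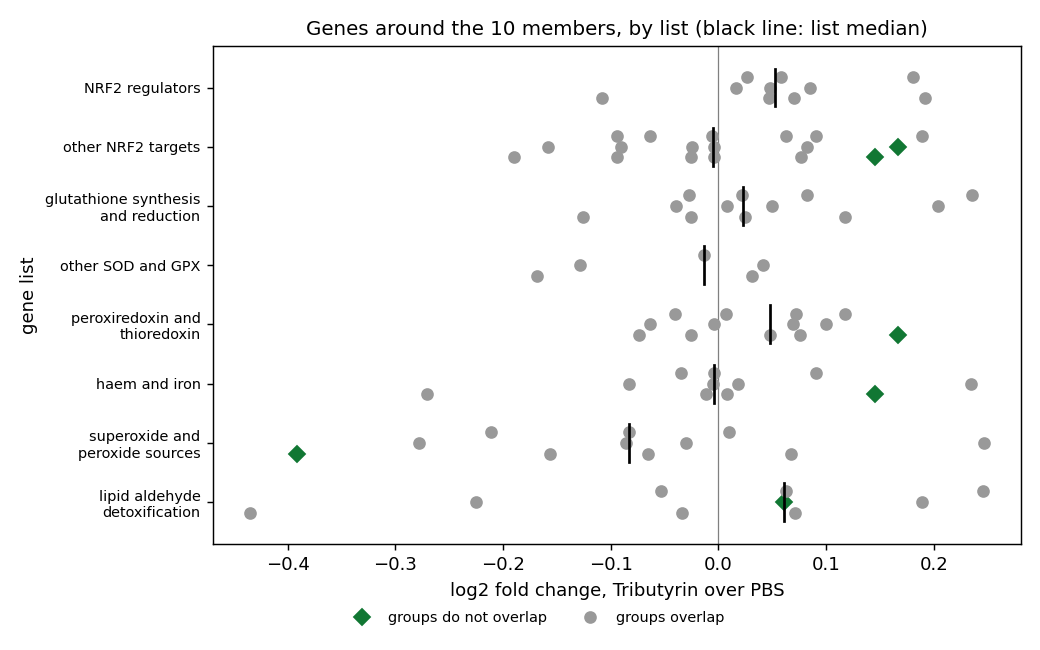
Log2 fold change, Tributyrin over PBS, of the 80 further genes tested, by list, with a black line at each list's median (a gene in 2 lists is drawn in both). The groups do not overlap for *Prdx1*, *Fth1*, *Adh5* and *Maoa*, and the list medians lie between -0.08 and 0.06.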

How the data were processed

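Ventricle RNA of 6 mice was sequenced by stranded mRNA-seq. The authors trimmed adapters with cutadapt 1.13, aligned to mm10 with STAR and counted reads per Ensembl gene with HTSeq 0.6.1p1 (names and versions per the submitters' processing notes, which also list DESeq2 1.14.1), and deposited whole-number counts without normalization. The strand setting of the counting is not given in the sources used here. Every line of the tables named a gene (0 without). Symbols, positions and lengths came from GENCODE M21 (GRCm38), which held 54165 of 54232 identifiers, and promoters from RefSeq. Their motifs were searched on both strands.

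Samples were grouped by their labels, 3 per group. The comparison used edgeR 4.0.16 (quasi-likelihood test, TMM scaling, filterByExpr with minimum count 10 and minimum total 15, Benjamini-Hochberg adjustment) in R 4.3.3, at an FDR of 10% and of 5%. Standard errors and 95% intervals came from the same fit. Normalized counts and RPKM were computed from the counts (DESeq2 1.42.0 size factors and TMM-scaled library sizes). Counting error per library was at most 9.90% for the 10 genes. Groups are called apart where all 3 libraries of one lie beyond all 3 of the other. Steps were tested on simulated data. Figures were drawn with Python 3.11.15 and matplotlib 3.10.9.

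The 10 genes, the further lists and the tests were chosen with earlier results of these data known. Genes named are the 10, the 3 genes of smallest unadjusted p in each further list, and, for each of the 10, the gene most correlated with it. Marker genes were to be named by their highest and lowest fold change but are given here mainly as sums. *Adh5*, *Slc7a11*, *Fabp4*, *Ddx3y*, *Tnni3*, *Myh6*, *Myh11* and *Lum*, overlapping genes and pseudogenes were named outside this rule, after their values were seen. Alternatives were RLE factors, library size alone, TMM without mitochondrial genes, no filter, a mean CPM of at least 5, DESeq2, limma-voom 3.58.1, a robust prior, a block for the replicate number, and a fit without each library in turn. Leaving out PBS 1 and PBS 2 together was added after seeing the data. The authors' own comparison and the other groups of the study were not used here.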

Additional observations from a re-analysis of the deposited data

How the results depend on the processing

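None of the 10 genes passed an FDR of 10% in any of 16 alternatives, and the smallest adjusted p was 0.415 (*Sod1* without Tributyrin 2, edgeR). Over 15 of these, 472 of 478 values of 32 named genes kept their direction and side of the threshold and 6 reversed. Over all genes, 0 passed an FDR of 10% in the reported fit, 167 without a filter on low counts, 11 with DESeq2 and 0 to 3 with each library left out. The labels do not say whether the replicate numbers pair the samples. Taken as deviations from the group mean, same-numbered samples had correlations of 0.214, 0.037 and 0.015. Not every sample correlated best with its own number, but with 3 samples per group these values cannot decide whether the numbers pair them. With the replicate block 2 genes passed, none of them among the 10. With library size alone, 27.5% of all genes were above 0 and their median log2 fold change was -0.0736. Under it 4 of the 10 genes and 18 of the 80 further genes were above 0, and the median of the 10 was -0.0118. That median ranged from 0.0185 to 0.1158 with single libraries left out and was 0.1147 without PBS 1 and PBS 2. Reversed with library size alone were *Sod2* (-0.0213), *Gpx4* (-0.0278), *Prdx3* (-0.0023) and *Gpx8* (-0.0333). Reversed with a single library left out were *Hmox1* without Tributyrin 1 (0.0449, against -0.4741 without Tributyrin 2) and *Gpx4* without Tributyrin 3 (-0.0652, against 0.1103 without Tributyrin 2), and without PBS 1 and PBS 2 *Nqo1* (0.02), *Ggt5* (-0.0818) and *Gpx8* (-0.10). The cause was not tested. Without PBS 1 and PBS 2 the PBS group is 1 library, assumed to vary like the others. Precision was poorest for *Hmox1* (95% interval -0.68 to 0.36 on the log2 scale) and best for *Cat* (-0.01 to 0.28).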

Other observations

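The tested gene most like each of the 10 across the 6 libraries was found by Pearson's r of log2 CPM, as a description over 6 points that share library, scaling and tissue piece. The highest was 0.999, between *Gpx4* and *L3mbtl2*. Next came *Cat* with *Gspt1* at 0.998, *Hmox1* with *Utp20* at 0.997 and *Sod2* with *Sdhd*, a subunit of respiratory complex II, at 0.997. *Gclm* reached 0.996 with *Etv1* and *Prdx3* 0.996 with *Smim7*. *Nqo1* with *Slc16a6* (0.992), *Gpx1* with *Cct7* (0.992), *Gclc* with *Clba1* (0.989) and *Sod1* with *Ryk* (0.985) completed the set. With library size alone *Gpx1* and *Cct7* were at 0.382 and *Sod1* and *Ryk* at 0.83. Between 17 and 148 genes had r above 0.95 with each of the 10, so a single partner is one of many. Among the 45 pairs of the 10 genes, the highest r was 0.88 (*Gpx1* and *Prdx3*), followed by 0.863 (*Gpx1* and *Gpx4*) and 0.846 (*Gpx4* and *Prdx3*), and the lowest was -0.84 (*Hmox1* and *Sod2*).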
